A study of Homo sapiens with 12 samples.

Results

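The APOBEC3 genes encode cytidine deaminases, and 6 of them were examined in HCT116 TIM-mAID cells: APOBEC3B, APOBEC3C, APOBEC3D, APOBEC3F, APOBEC3G and APOBEC3H. They were taken by gene symbol from a deposited table of 62700 genes, and each symbol named 1 row. The cells are a human colorectal cancer line whose labels give a wild-type background with a CRISPR knock-in of mAID, a mini auxin-inducible degron, at TIM, read here as TIMELESS, a protein that travels with the replication fork. Polyadenylated RNA was sequenced in 12 libraries after 40 h of treatment, in 4 groups of 3 biological replicates: 5-Ph-IAA at 1 µM with the ATR kinase inhibitor ceralasertib at 1 µM (5-Ph-IAA/ATRi, here the combination), ceralasertib alone at 1 µM (ATRi), 5-Ph-IAA alone at 1 µM, and the solvent DMSO. 5-Ph-IAA is an auxin analogue that sends degron-tagged proteins to a ubiquitin ligase, and ATR signals stalled replication forks. All 4 groups carry the tagged allele, and whether the line is a single clone is not given in the sources used here.

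APOBEC3 enzymes convert cytosine to uracil in single-stranded DNA. They are known for mutating retroviral cDNA, and some of them also mutate the genome of tumour cells. Each holds 1 or 2 zinc-binding deaminase domains, in which a histidine and a pair of cysteines hold the zinc ion. In an active domain a glutamate is catalytic. In human cells APOBEC3B is known as a target of the DREAM repressor complex and of NF-kB, and p53 has been reported to lower APOBEC3B RNA and to raise that of APOBEC3C and APOBEC3H.

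The 6 genes lie side by side on chromosome 22 (GRCh38.p14). APOBEC3B spans chr22:38982347-38992779, APOBEC3C chr22:39014257-39020352 and APOBEC3D chr22:39021127-39033277. APOBEC3F spans chr22:39040864-39055972, APOBEC3G chr22:39077005-39087743 and APOBEC3H chr22:39097244-39104067. APOBEC3C and APOBEC3H encode 1 zinc motif each, in proteins of 190 and 183 residues, and the other 4 members encode 2.

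Coding sequences of motifs are shown because likeness between members bears on how well sequencing reads keep them apart. They run 5′ to 3′ on the coding strand and come from the principal transcripts of GENCODE release 29 on GRCh38. Capitals mark the codons of the motif's histidine, glutamate and pair of cysteines. They do not show whether a domain is catalytically active.
APOBEC3C: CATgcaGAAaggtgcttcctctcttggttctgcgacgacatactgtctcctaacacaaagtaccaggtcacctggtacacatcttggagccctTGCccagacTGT
APOBEC3D second motif, identical in the APOBEC3F second motif: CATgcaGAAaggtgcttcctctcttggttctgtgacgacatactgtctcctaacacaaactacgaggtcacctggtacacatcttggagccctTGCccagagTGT
APOBEC3B first motif, identical in the APOBEC3F first motif: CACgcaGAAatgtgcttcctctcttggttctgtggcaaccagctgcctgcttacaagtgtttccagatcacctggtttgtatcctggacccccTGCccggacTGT
APOBEC3B second motif: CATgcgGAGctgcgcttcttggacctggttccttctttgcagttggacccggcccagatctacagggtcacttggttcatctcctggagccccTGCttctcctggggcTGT
APOBEC3H: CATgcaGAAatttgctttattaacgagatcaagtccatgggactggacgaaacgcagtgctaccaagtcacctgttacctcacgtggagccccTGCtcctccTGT
Over 105 bases, the APOBEC3C stretch differs from the second motif of APOBEC3D and APOBEC3F at 4 bases (96.2% identical). The APOBEC3H stretch is at most 61.9% identical to any other motif of the same length, which is the second of APOBEC3G. That APOBEC3G motif is as far from the rest, at most 57.1% identical to the other motifs of its length. The second motif of APOBEC3B and the first of APOBEC3G differ in length and were not compared.

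Stretches of 31 bases were counted in all annotated transcripts of each member. Of those of APOBEC3B, 47.66% also occur in another APOBEC3 gene, mostly in APOBEC3A (29.58%), which had at most 1.04 counts in any library. The share was 30.22% for APOBEC3F, 22.47% for APOBEC3D, 9.41% for APOBEC3G and 6.29% for APOBEC3C, and none of the stretches of APOBEC3H is shared. The deposited values are counts that Salmon estimated by dividing reads among similar transcripts. They lay more than 0.01 from a whole number in 12 of 12 libraries for APOBEC3B, APOBEC3F and APOBEC3G, in 9 for APOBEC3D, in 1 for APOBEC3C and in 0 for APOBEC3H. Levels of the other 4 members are uncertain to the extent that reads were divided wrongly among the genes.

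**Figure D1:**
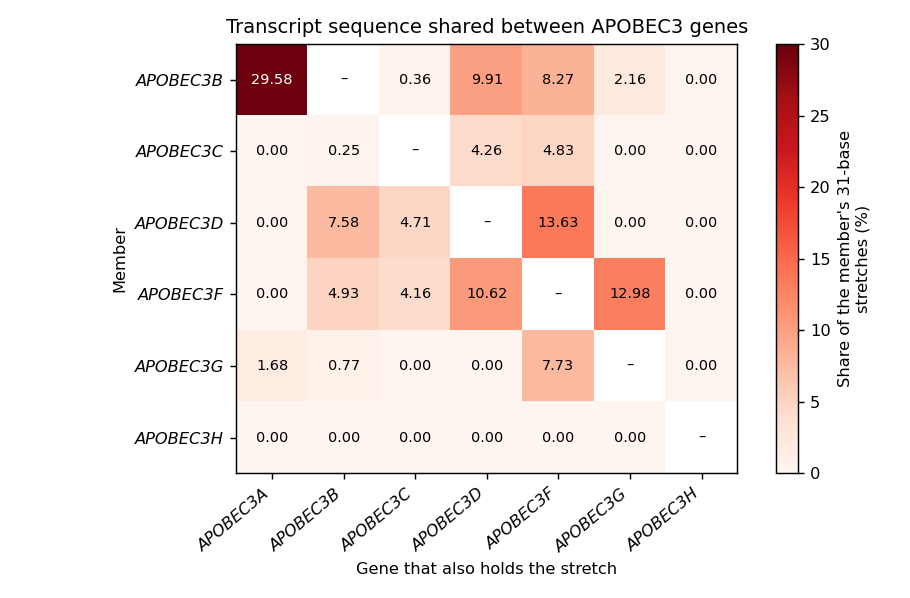
Share of each member's 31-base transcript stretches (%, rows) that also occur in another APOBEC3 gene (columns). The highest shares are 29.58% between APOBEC3B and APOBEC3A and 13.63% between APOBEC3D and APOBEC3F, and the APOBEC3H row is 0.

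Library totals were 27.7 M to 34.7 M (mega counts), and levels are given as TMM-scaled CPM, that is counts scaled to a library of 1 M. All 6 members passed the count filter, as did 18049 genes in all. Mitochondrial transcripts took 6.63% to 14.9% of counts, with group means of 12.2% ± 1.63 in the combination, 10.6% ± 3.0 in ATRi, 10.1% ± 3.397 in 5-Ph-IAA and 9.81% ± 4.49 in DMSO (SD, n = 3 each). Of 10 epithelial markers 7 passed the filter, and their summed level was 10205 to 11638 CPM in the combination, 5909 to 6653 in ATRi, 4914 to 6548 in 5-Ph-IAA and 4483 to 6539 in DMSO. Of the 7, 4 were higher in the combination than in DMSO, where 6.24% of all genes were called higher. Among the 4 were KRT8, KRT18 and KRT19 (log2 fold changes of 1.35, 1.04 and 0.89). EPCAM (-0.35), CDH1 (0.06) and CLDN4 (0.13) did not pass, and CEACAM5 and CEACAM6, typical of colon epithelium, had at most 1 count in any library. Markers of lymphoid and myeloid cells, in which APOBEC3 genes are abundant, summed to 5.81 to 6.51 CPM in the combination, 3.47 to 4.61 in ATRi, 3.57 to 5.30 in 5-Ph-IAA and 3.43 to 4.48 in DMSO. Of these 12 markers 5 passed the filter and 2, CD14 and ITGAM, were higher in the combination than in DMSO (2.42 and 1.31). CD8A (-0.07, 36 to 60 counts a library), LYZ (0.25) and CSF1R (-0.05) were tested and not called. PTPRC, which marks leukocytes in general, had 2 to 5 counts a library in the combination and at most 2 in the other groups. CD3E and MS4A1 had at most 2 counts and CD3D at most 4. The part of the marker shifts in the results below was not tested. The mitochondrial share entered an alternative fit as a covariate, which does not settle its part in the results. In bulk RNA, fewer cells carrying a transcript and less of it per cell cannot be told apart.

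APOBEC3C and APOBEC3H RNA were higher in the combination than in DMSO, with estimates of about the same size. The APOBEC3H call was close to the threshold and was lost under 6 alternatives. APOBEC3B, the member best known for genomic mutation in tumours, did not pass in any of the 6 comparisons. Against DMSO 2 of the 6 members rose and none fell, beside 13.1% of all genes called (6.24% higher and 6.89% lower; edgeR quasi-likelihood test, Benjamini-Hochberg adjusted p under 0.05 over all genes). The median log2 fold change of the 6 was 0.72, and that of all genes tested was -0.02.

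APOBEC3C, a single-domain deaminase found in both nucleus and cytoplasm, had 129.9, 134.7 and 152.9 CPM in the combination, 75.8, 92.3 and 87.3 CPM in ATRi, 62.5, 65.2 and 86.4 CPM in 5-Ph-IAA, and 62.6, 42.0 and 71.3 CPM in DMSO. Every combination library lay above every other library, and every ATRi library lay above every DMSO library, while 5-Ph-IAA and DMSO overlapped. The means were 139.2 ± 12.2 CPM in the combination, 85.1 ± 8.44 in ATRi, 71.4 ± 13.1 in 5-Ph-IAA and 58.6 ± 15.01 in DMSO (SD, n = 3 each). APOBEC3C rose 2.37-fold in the combination over DMSO (log2 fold change 1.25 ± 0.20, SE; 95% interval 0.82 to 1.67; edgeR adjusted p = 0.00200). The call held without any 1 of the 6 libraries (log2 1.05 to 1.41, adjusted p 0.00277 to 0.0117).

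APOBEC3C was also the 1 member that rose in the combination over 5-Ph-IAA alone, where 9.41% of all genes were called (4.38% higher and 5.04% lower). The log2 fold change was 0.96 ± 0.19 (edgeR adjusted p = 0.0111), and without the third combination library it was 0.89 and just missed the threshold (adjusted p = 0.0505). Over ATRi alone it was 0.71 ± 0.19 (95% interval 0.29 to 1.13), which did not pass (edgeR adjusted p = 0.0731). There none of the 6 members passed in edgeR, 1 had an unadjusted p under 0.05, DESeq2 called 1 and limma-voom 0, beside 3.51% of all genes called (1.63% higher and 1.88% lower). DESeq2 called APOBEC3C in that comparison (log2 0.71, adjusted p = 0.0136). It called 8.09% of all genes there, and limma-voom called 3.37%.

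With ATRi alone the log2 fold change of APOBEC3C over DMSO was 0.54 ± 0.19 (95% interval 0.11 to 0.96; edgeR adjusted p = 0.820), and with 5-Ph-IAA alone it was 0.28 ± 0.19 (-0.14 to 0.71; adjusted p = 1). Neither single treatment had a member past the threshold, beside 0.0665% of all genes called with ATRi and 0.00554% with 5-Ph-IAA. In edgeR 1 member, APOBEC3C, had an unadjusted p under 0.05 with ATRi, and 0 members did with 5-Ph-IAA. DESeq2 and limma-voom called 0 members in either. The interaction asks whether the change in the combination departs from the sum of both single changes on the log2 scale. It was 0.42 ± 0.27 for APOBEC3C (95% interval -0.17 to 1.02; edgeR adjusted p = 0.893). No member passed the interaction test, none had an unadjusted p under 0.05, DESeq2 and limma-voom called 0, and 0.0776% of all genes were called.

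**Figure D2:**
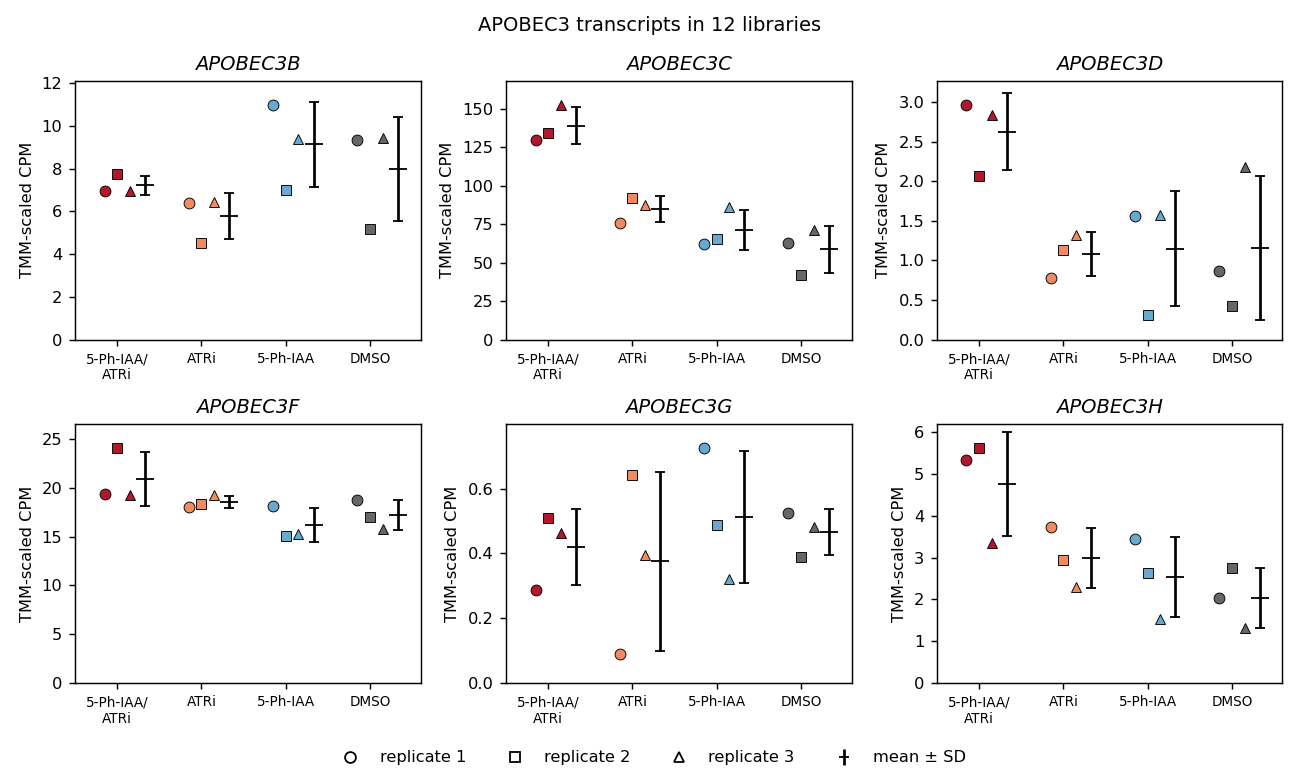
TMM-scaled CPM (y axis, from 0) of each member in the 12 libraries by group, with symbols for replicates 1 to 3 and a bar for the mean ± SD. The 3 combination libraries of APOBEC3C, at 129.9 to 152.9 CPM, sit above all others, while those of APOBEC3B, at 6.96 to 7.74 CPM, lie within the DMSO range.

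APOBEC3H, a single-domain enzyme that can act on retroviral cDNA and whose stability differs between inherited forms of the protein, had 5.33, 5.63 and 3.34 CPM in the combination, 3.73, 2.93 and 2.29 CPM in ATRi, 3.45, 2.63 and 1.54 CPM in 5-Ph-IAA, and 2.04, 2.75 and 1.30 CPM in DMSO. The combination libraries lay above all DMSO libraries but overlapped both single treatments. Among libraries of the same set number in the titles, the combination library was the highest each time. The same held for APOBEC3C, APOBEC3D and APOBEC3F. The APOBEC3H levels rest on 94 to 155 counts a library in the combination and 46 to 78 in DMSO. APOBEC3H rose 2.35-fold in the combination over DMSO (log2 fold change 1.23 ± 0.36, SE; 95% interval 0.44 to 2.02; edgeR adjusted p = 0.0441).

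The APOBEC3H call was close to the threshold. It was lost without DMSO 1 (log2 1.24, edgeR adjusted p = 0.122), DMSO 3 (0.99, 0.126), combination 1 (1.14, 0.130) or combination 2 (1.096, 0.142), and held without DMSO 2 (1.51, 0.0295) or combination 3 (1.43, 0.0478). In every group the third library had both the lowest APOBEC3H level and the lowest mitochondrial share. With the mitochondrial share as a covariate the log2 fold change was 0.96 (edgeR adjusted p = 0.00508), in a fit that called 35.7% of all genes. The values over 5-Ph-IAA alone (0.91 ± 0.36, adjusted p = 0.149) and over ATRi alone (0.68 ± 0.35, adjusted p = 0.384) did not pass, nor did ATRi (0.56 ± 0.36) or 5-Ph-IAA (0.32 ± 0.36) over DMSO. With the set number as a replicate block, APOBEC3H passed over 5-Ph-IAA (edgeR adjusted p = 0.00843), where 19.6% of all genes were called. Over ATRi it passed in no setting run (lowest adjusted p = 0.0541).

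APOBEC3B, a double-domain nuclear enzyme, had 6.98, 7.74 and 6.96 CPM in the combination, 6.38, 4.52 and 6.43 CPM in ATRi, 11.003, 7.02 and 9.38 CPM in 5-Ph-IAA, and 9.34, 5.18 and 9.44 CPM in DMSO. The combination libraries fell inside the DMSO range and above all ATRi libraries. The log2 fold change of the combination over DMSO was -0.15 ± 0.25, with a 95% interval of -0.69 to 0.40 (edgeR adjusted p = 0.771), so that the interval holds both a moderate fall and a small rise. ATRi over DMSO gave -0.47 ± 0.25 (-1.02 to 0.08, adjusted p = 1.00) and 5-Ph-IAA over DMSO gave 0.19 ± 0.25 (-0.35 to 0.74, adjusted p = 1). The combination over 5-Ph-IAA gave -0.34 ± 0.25 (adjusted p = 0.479) and over ATRi 0.32 ± 0.25 (adjusted p = 0.607). Counts of the antisense gene APOBEC3B-AS1 were at most 1 in any library.

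The ratio of APOBEC3C to APOBEC3B counts within a library needs no scaling between libraries. It was 18.6, 17.4 and 21.9 in the combination, 11.9, 20.4 and 13.6 in ATRi, 5.68, 9.30 and 9.22 in 5-Ph-IAA, and 6.69, 8.12 and 7.55 in DMSO. All libraries with the ATR inhibitor, alone or in the combination, lay above all libraries without it. The ratio of both groups without the inhibitor overlapped. Other ratios did not separate in this way. APOBEC3C per APOBEC3F was 4.20 to 5.03 in ATRi, 3.44 to 5.66 in 5-Ph-IAA and 2.46 to 4.52 in DMSO, and 5.58 to 7.95 in the combination. APOBEC3H per APOBEC3B was 0.356 in the third ATRi library and 0.531 in the second DMSO library. How many gene pairs separate by the inhibitor was not tested.

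**Figure D3:**
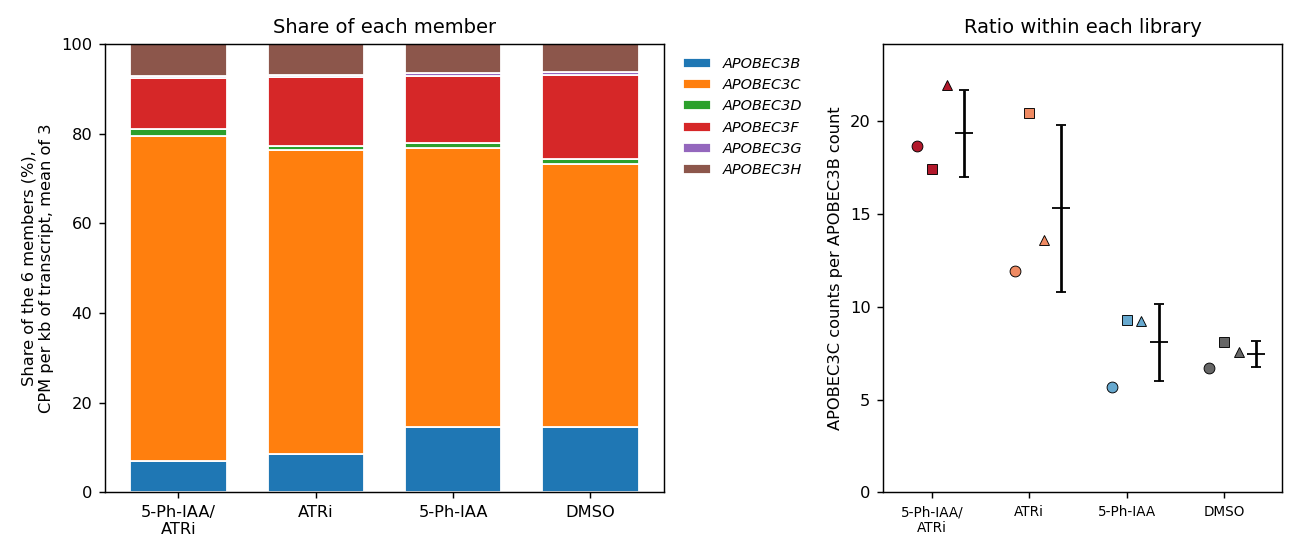
Left, mean share (%) of each member in the summed CPM per kb of the 6 members, by group; right, APOBEC3C counts per APOBEC3B count in each library (symbols as replicates 1 to 3 in circle, square and triangle) with the mean ± SD. APOBEC3C makes up 72.6% in the combination and 58.6% in DMSO.

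APOBEC3D and APOBEC3F, double-domain enzymes that restrict retroviruses in lymphoid cells, share an identical second motif. APOBEC3D had 2.97, 2.07 and 2.84 CPM in the combination, 0.776, 1.13 and 1.33 CPM in ATRi, 1.56, 0.305 and 1.57 CPM in 5-Ph-IAA, and 0.866, 0.423 and 2.18 CPM in DMSO. The combination libraries lay above both single treatments, but the third DMSO library exceeded the lowest of them. The log2 fold change over DMSO, 1.168 ± 0.60, was nearly as large as that of APOBEC3C, but its 95% interval of -0.15 to 2.49 was wide and it did not pass (edgeR adjusted p = 0.244). These levels rest on 10 to 83 estimated counts a library. With the mitochondrial share as a covariate the value was 1.59 and passed (edgeR adjusted p = 0.0424), in a fit that called 35.7% of all genes. Over 5-Ph-IAA the log2 fold change was 1.20 ± 0.60 and over ATRi 1.28 ± 0.60, with edgeR adjusted p of 0.270 and 0.322.

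APOBEC3F was the steadiest member, with a 1.60-fold range over all 12 libraries. It had 19.4, 24.1 and 19.2 CPM in the combination, 18.05, 18.3 and 19.2 CPM in ATRi, 18.2, 15.1 and 15.3 CPM in 5-Ph-IAA, and 18.8, 17.1 and 15.8 CPM in DMSO. The combination libraries were the highest, though the lowest of them and the highest ATRi library were both 19.24 CPM to 2 decimals. The log2 fold change over DMSO was 0.28 ± 0.13 (95% interval -0.01 to 0.58; edgeR adjusted p = 0.207), over 5-Ph-IAA 0.37 ± 0.13 (adjusted p = 0.116) and over ATRi 0.17 ± 0.13 (adjusted p = 0.601). Since reads of APOBEC3D and APOBEC3F can be exchanged in the estimate, their sum was also taken. It was 22.4, 26.2 and 22.1 CPM in the combination, 18.8, 19.5 and 20.6 in ATRi, 19.7, 15.4 and 16.8 in 5-Ph-IAA, and 19.7, 17.5 and 17.9 in DMSO. The combination libraries thus also had the 3 highest sums, of which APOBEC3D made up 7.86% to 13.3% in the combination and 2.49% to 12.2% in DMSO.

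APOBEC3G, the double-domain enzyme best known for restricting HIV in T cells, was too low to judge. It had 0.286, 0.509 and 0.462 CPM in the combination, 0.0895, 0.642 and 0.395 CPM in ATRi, 0.726, 0.489 and 0.319 CPM in 5-Ph-IAA, and 0.526, 0.388 and 0.482 CPM in DMSO, from 3.03 to 21.1 estimated counts a library. All groups overlapped. The log2 fold change of the combination over DMSO was -0.15 ± 0.55, and its 95% interval of -1.37 to 1.06 covers changes of more than 2-fold in either direction (edgeR adjusted p = 0.902).

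**Figure D4:**
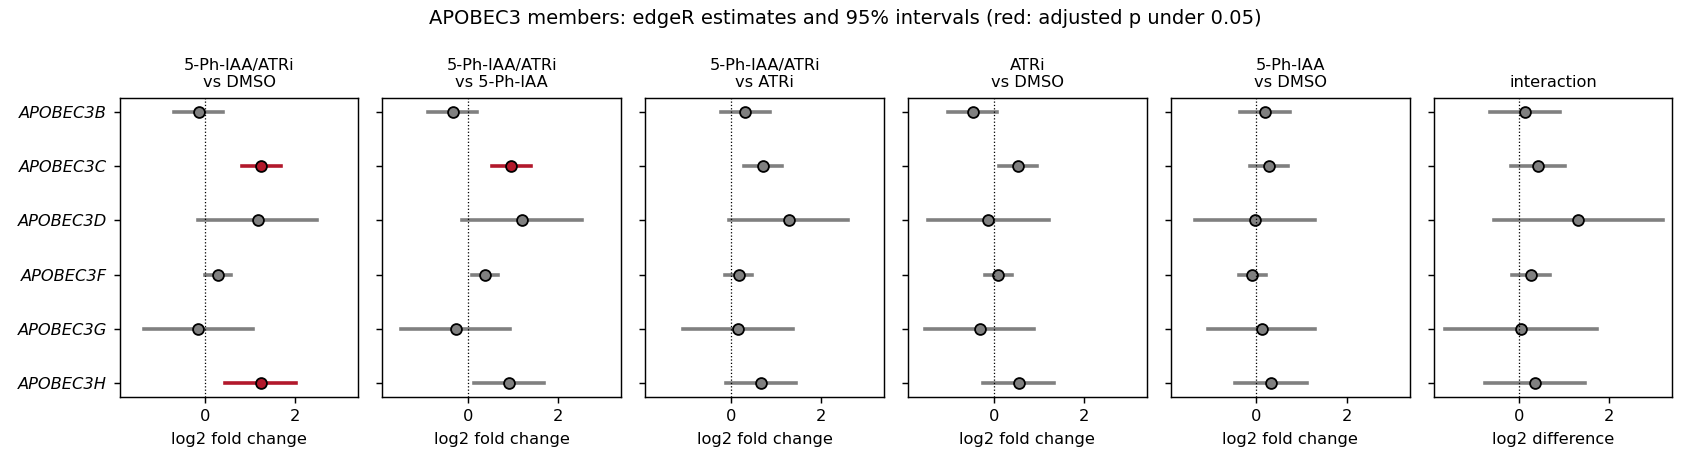
Log2 fold change (x axis; for the interaction, a log2 difference) of each member in 6 comparisons from edgeR, with 95% intervals and values past the threshold in red. APOBEC3C passes in the combination over DMSO (1.25) and over 5-Ph-IAA (0.96) and APOBEC3H over DMSO (1.23), and the intervals of APOBEC3D and APOBEC3G are the widest.

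Levels of different members were compared per kb of principal transcript, on the CPM per kb scale. APOBEC3C was the highest in all 4 groups, at 49.4 ± 4.32 in the combination, 30.2 ± 2.99 in ATRi, 25.3 ± 4.65 in 5-Ph-IAA and 20.8 ± 5.33 in DMSO (SD, n = 3 each). APOBEC3F followed at 7.77 ± 1.03 in the combination and 6.39 ± 0.567 in DMSO. APOBEC3H and APOBEC3B came next and did not differ beyond their spread in the combination (4.82 ± 1.26 and 4.71 ± 0.290), whereas in DMSO APOBEC3H, at 2.06 ± 0.732, lay below APOBEC3B at 5.21 ± 1.58. In DMSO and 5-Ph-IAA, APOBEC3B and APOBEC3F did not differ beyond their spread. APOBEC3D (1.04 ± 0.192 in the combination, 0.458 ± 0.362 in DMSO) and APOBEC3G (0.228 ± 0.0639 and 0.254 ± 0.0384 in the same groups) were lowest. APOBEC3C made up 72.6% ± 3.69 of the sum over the 6 members in the combination, 67.8% ± 3.31 in ATRi, 62.2% ± 7.03 in 5-Ph-IAA and 58.6% ± 4.99 in DMSO. The share of APOBEC3B was 6.94% ± 0.478 in the combination, 8.52% ± 1.89 in ATRi, 14.6% ± 2.68 in 5-Ph-IAA and 14.6% ± 2.10 in DMSO. Per kb of coding sequence the share of APOBEC3C was 87.0% in the combination and 78.4% in DMSO, since much of its transcript is not coding.

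Other APOBEC genes were close to absent from the counts. APOBEC1 and APOBEC2 had at most 1 count in any library and APOBEC3A at most 1.04. APOBEC4 had 0 counts in all 12, which allows up to 0.00798 CPM over the summed libraries, for counting error alone.

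Over the 12 libraries, on a log2(CPM + 1) scale, Pearson's r between members was highest for APOBEC3C with APOBEC3D (0.78) and for APOBEC3F with APOBEC3H (0.73). APOBEC3B had r of -0.04 with APOBEC3C and -0.26 with APOBEC3H. These points share the 4 treatments and their libraries, so r is a description. Of 11440 other genes, those with the pattern most like APOBEC3C were PPM1D, a phosphatase gene (r = 0.991), SERPINB5, which encodes maspin (0.990), IPPK (0.988), CMBL (0.988) and ZMAT3 (0.987). For APOBEC3H they were ZNF337 (0.980), IRF5, PVT1, MMP24OS and ATP6V0E1 (0.967). For APOBEC3B they were DHRS11 (0.963), SNX22, AMDHD2, DDX46 and B3GNT4 (0.824), and for APOBEC3D TEFM (0.938), ZBTB43, GIT1 and PGS1 (0.915). For APOBEC3F they were CSNK1E (0.865), SP110, FLAD1, TAF11 and OGFR (0.843).

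Genes of the pathways that act on or beside these deaminases were read from the same fit, combination over DMSO. Counts for each list stand beside 6.24% of all genes called higher and 6.89% called lower. Interferon-induced genes, a class to which some APOBEC3 genes belong in immune cells, were mostly higher: of 21 tested 14 rose and 0 fell, with a median log2 fold change of 1.30 beside -0.02 for all genes. They include OASL (2.37), IFIT3 (1.82), OAS1 (2.07), IFIT1 (1.92), IFIT2 (1.63) and ISG15 (1.96), all effectors of the antiviral response. The number that rose was 6 without DMSO 1, 8 without DMSO 3 and 7 without combination 2. The share of all genes called in either direction was 13.1% with all libraries, and 6.68%, 9.26% and 7.41% in these fits. Among 9 other antiviral restriction factors 1 rose, TRIM22 (1.77 ± 0.24, edgeR adjusted p = 0.000811), and the median was 0.16. The number that rose was 2 with upper quartile factors and 6 with the mitochondrial covariate, where 13.2% and 35.7% of all genes were called.

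The list of E2F, DREAM and MYB-MuvB genes and their regulators had 1 higher and 6 lower of 22 tested, with a median of -0.27. Of all genes, 6.24% were called higher and 6.89% lower. The 1 that rose was a regulator, CDKN1A, the gene of p21, which blocks cyclin-dependent kinases (3.24 ± 0.19, edgeR adjusted p = 6.23e-06). The cell cycle activators MYBL2 (-2.26), FOXM1 (-2.17), E2F2 (-2.07) and E2F1 (-1.82) fell, as did the E2F repressor gene E2F8 (-1.81) and the pocket protein gene RBL2 (-0.72). The number that fell was 2 without DMSO 1 or combination 3, 3 without DMSO 3, combination 1 or combination 2, and 3 with limma-voom. Of all genes, 6.68% to 9.26% were called in the fits without 1 of those libraries and 12.6% with limma-voom. Of 11 NF-kB subunits and feedback genes 3 rose, the subunit gene RELB (0.82), the inhibitor gene NFKBIE (0.61) and the ubiquitin ligase gene BIRC3 (0.75), with a median of 0.33. That number was 1 without combination 1 or combination 2, 6 with the mitochondrial covariate and 5 with upper quartile factors or DESeq2. The share of all genes called was 7.31% and 7.41% without those libraries. It was 35.7% with the covariate, 13.2% with upper quartile factors and 18.1% with DESeq2.

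Genes that handle uracil and abasic sites in DNA had a median of -0.24, with 0 higher and 2 lower of 14, beside 6.24% of all genes called higher and 6.89% lower. DUT, which keeps dUTP out of the nucleotide pool, fell (-0.82 ± 0.15, edgeR adjusted p = 0.00427), as did the repair scaffold gene XRCC1 (-0.68 ± 0.14, adjusted p = 0.00964). UNG, the main uracil-DNA glycosylase, had -0.76 ± 0.30 (adjusted p = 0.124). The number that fell was 5 without DMSO 2 and 2 to 7 over the other settings (4 with DESeq2), under which 0 to 2 rose. The share of all genes called was 12.9% without DMSO 2 and 4.73% to 35.7% over the other settings (18.1% with DESeq2). Of 14 genes that neighbour the APOBEC3 cluster on chromosome 22, none passed in edgeR, with a median of -0.00. Of these 3 had an unadjusted p under 0.05, namely ATF4 (-1.03 ± 0.33), SUN2 (-0.95 ± 0.33) and CBX7 (-0.36 ± 0.16), and DESeq2 called 2 genes of the list lower. Without DMSO 2 and without a count filter 2 were lower, and with the mitochondrial covariate 4 were higher and 2 lower. In these fits 12.9%, 4.73% and 35.7% of all genes were called, in that order.

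**Figure D5:**
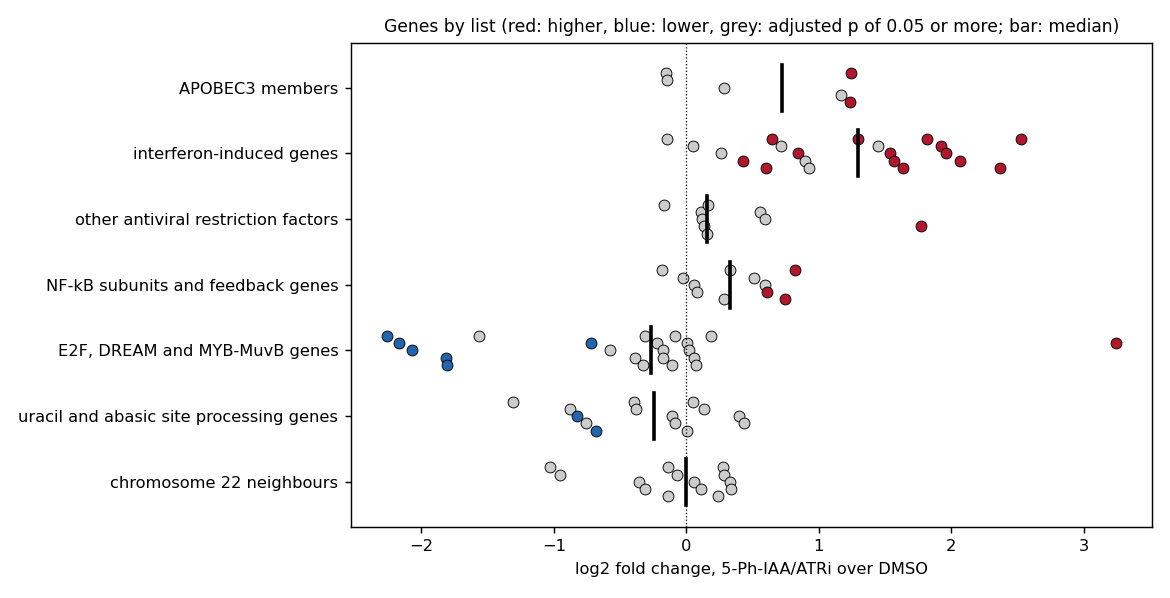
Log2 fold change of the combination over DMSO (x axis) for each tested gene, by list (rows), with medians as black bars. Medians are 0.72 for the APOBEC3 members, 1.30 for interferon-induced genes and -0.00 for the chromosome 22 neighbours.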

How the data were processed

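The authors deposited 1 table of Salmon estimated counts per gene, not normalised, for 12 libraries. Per the submitters' processing notes, the tools listed, with no role or order, are STAR 2.7.9a, Salmon 1.10.1, Trim Galore 0.6.7, cutadapt 3.4, SAMtools 1.17 and FastQC 0.12.1, and the build is GRCh38.p14. Neither the strand setting nor the annotation release is given in the sources used here, so antisense and overlapping genes are uncertain. Group and set number came from the sample titles.

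Estimated counts were rounded to whole numbers, filtered with filterByExpr (minimum count 10, minimum total 15), TMM-normalised and tested with the quasi-likelihood F test of edgeR 4.0.16 (R 4.3.3 with limma 3.58.1), fitting the 4 group means to all 12 libraries together. P values were adjusted by Benjamini-Hochberg over the 18049 genes tested, with a threshold of 0.05. The procedure was tested on simulated data. Alternatives were DESeq2 size factors, upper quartile factors, no count filter, at least 1 CPM in 3 libraries, limma-voom, DESeq2 1.42.0, the mitochondrial share as a covariate, a block for the set number, fitting only the compared groups, and leaving out each library in turn.

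The members and gene lists were chosen with earlier results of these data known. Named genes are the 6 members, from each list up to 6 tested genes, taken by smallest adjusted p in the combination over DMSO, plus CDKN1A, MYBL2, E2F1, RELB and UNG, and the 5 genes most correlated with each member above 1 CPM, among genes of at least 5 CPM. Gene positions come from RefSeq on GRCh38.p14, and transcripts from GENCODE release 29 on GRCh38. Protein sequences were not used here, and values of some named genes are left out. Intervals and floors cover counting error and the spread between these libraries only.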

Additional observations from a re-analysis of the deposited data

How the results depend on the processing

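The call of APOBEC3C in the combination over DMSO held under all 15 alternatives run. The number of members called in the combination over DMSO, 2 in the report, was 1 with upper quartile factors and with a fit of only the compared groups, where APOBEC3H had edgeR adjusted p of 0.0645 in each, 3 with the mitochondrial covariate, where APOBEC3D also passed (1.59, adjusted p = 0.0424), and 1 to 2 when 1 library was left out. Over 5-Ph-IAA it was 1 in the report, 2 with DESeq2, 3 with the mitochondrial covariate and 0 to 1 when 1 library was left out. Over ATRi it was 0 in the report, 1 with upper quartile factors, the filter of 1 CPM in 3 libraries, DESeq2 and the mitochondrial covariate, 2 with only the compared groups, and 0 whichever library was left out. For ATRi over DMSO the mitochondrial covariate gave 1, APOBEC3C (log2 0.63, edgeR adjusted p = 0.0154). That covariate called 35.7% of all genes in the combination over DMSO, 30.5% over 5-Ph-IAA and 17.7% over ATRi. For ATRi over DMSO it called 0.676%. In the combination over DMSO, 13.2% of all genes were called with upper quartile factors and 10.3% with only the compared groups. Over 5-Ph-IAA, DESeq2 called 14.2%. Over ATRi the shares were 3.59% with upper quartile factors, 4.63% with the filter of 1 CPM, 8.09% with DESeq2 and 5.68% with only the compared groups. Leaving out 1 library gave 6.68% to 12.9% over DMSO, 4.21% to 7.26% over 5-Ph-IAA and 0.726% to 1.2% over ATRi. Of the members' log2 values recomputed, 519 kept their direction and side of the threshold, 7 lost it, 13 gained it and 25 changed sign. The causes were not tested.

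Signs turned only for members far from the threshold. APOBEC3D with 5-Ph-IAA over DMSO, -0.03 in the report, was 0.00096 with upper quartile factors and 0.14 with the mitochondrial covariate, and with ATRi over DMSO, -0.11 in the report, 0.12 with limma-voom and 0.079 with the mitochondrial covariate. With 1 library left out, APOBEC3D ranged from -0.42 to 0.82 with 5-Ph-IAA and from -0.50 to 0.73 with ATRi, and APOBEC3B from -0.041 to 0.35 with 5-Ph-IAA and from -0.030 to 0.36 in the interaction. APOBEC3G ranged from -0.21 to 0.37 with 5-Ph-IAA, -0.92 to 0.15 with ATRi, -0.31 to 0.055 in the combination over DMSO, -0.53 to 0.049 over 5-Ph-IAA, -0.30 to 0.77 over ATRi and -0.42 to 0.65 in the interaction. APOBEC3G gave no value under the filter of 1 CPM in 3 libraries.

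Samples of 1 set number did not deviate together in every pair: 13 of 18 correlations of same-numbered deviations from group means were over 0.1 (-0.16 to 0.89), and 10 of 12 libraries correlated best with their own number, a hint from the data. The median correlation was 0.53 for same-numbered pairs and -0.31 for pairs of different numbers, of which 9 of 36 were over 0.1. With the set number as a replicate block, 1 member passed over ATRi (APOBEC3C, 0.70, edgeR adjusted p = 0.0180), 2 over 5-Ph-IAA (with APOBEC3H at 0.94, adjusted p = 0.00843), and APOBEC3D was 0.0024 with 5-Ph-IAA and 0.082 with ATRi over DMSO. The block fit called 11% of all genes over ATRi and 19.6% over 5-Ph-IAA. Genes called in the combination over DMSO numbered 2370 in the report, 4569 with the block, 6449 with the mitochondrial covariate and 1236 to 2376 with 1 library left out. Counts of 10 to 155 a library limit what can be said of APOBEC3D and APOBEC3H.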
